A study of Mus musculus with 4 samples.

Results

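The Klf3 locus was examined for KLF1 occupancy in mouse fetal liver by chromatin immunoprecipitation followed by sequencing (ChIP-seq), which counts along the genome the DNA fragments recovered with an antibody. The locus was taken as the 70 kb of chromosome 5 from 65170000 to 65240000 on build mm9, which holds Klf3 with its flanks. Its members were the peaks of the authors' list that start there, 2 of 945, and the reads with their 5′ end there, 749 from the KLF1 ChIP and 1788 from input DNA.

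Per the labels, the livers were homozygous for a Klf3-null allele (Klf3 -/-) on the Balb/c strain and were taken at embryonic stage E14.5, and 4 of them were pooled after straining. The ChIP used a rabbit polyclonal antibody to KLF1, and input DNA without antibody was the control. Both groups carried the Klf3 -/- label, and no group labelled Klf3-intact was analysed here. The labels do not say which part of Klf3 the allele removes. The 4 samples, 2 per group, were run on SOLiD Systems 2.0 and 3.0 and deposited combined, as 1 ChIP file of 17438921 aligned reads and 1 input file of 47356494. There was therefore no replicate error, and every interval and test below compares 2 libraries and covers counting error only. The label of erythroid cells could not be set against marker expression, because the reads are of DNA.

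KLF1, also called EKLF, is the Krüppel-like zinc finger activator of the red cell programme. It binds CACCC-type elements in promoters and enhancers of globin, heme and membrane genes. KLF3, also called BKLF, recognises similar elements but acts mainly as a repressor through the corepressor CtBP. Klf3 is known as a KLF1 target that is transcribed from more than one promoter, one of which is used in erythroid cells.

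The promoter sequence is shown with its matches to CCNCNCCC, a loose pattern that includes CCACACCC. Binding of KLF1 or KLF3 to these matches was not tested. The set of RefSeq promoter entries used here held 1 for Klf3 (gene 16599, 29381 bp long). The 250 bases before its start on the forward strand of build GRCm38.p6 are printed 5′ to 3′. Whether this is the promoter used in erythroid cells was not determined. Capitals mark matches to CCNCNCCC or its reverse complement.
Klf3 promoter: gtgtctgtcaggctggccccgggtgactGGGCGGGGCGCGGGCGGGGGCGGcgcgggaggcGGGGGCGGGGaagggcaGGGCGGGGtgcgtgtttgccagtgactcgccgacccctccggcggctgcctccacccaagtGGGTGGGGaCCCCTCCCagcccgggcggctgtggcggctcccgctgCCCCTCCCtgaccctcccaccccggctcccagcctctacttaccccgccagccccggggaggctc

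This stretch was 78.4% G or C, against a median of 52.4% over the 32851 RefSeq promoter entries cut to the same 250 bases, and 98.1% of entries were lower. CCNCNCCC matched 10 times, 2 on the forward and 8 on the reverse strand, with overlaps among them. At least 1 match occurred in 45.9% of all entries, which were not matched to Klf3 for G or C content. The shorter CACCC matched 5 times, 2 forward and 3 reverse, of which 1 lay wholly within the bases marked above, and 52.0% of entries held it. The stricter CCACACCC had no match in these letters, and 3.20% of entries held it. Of the 20 Krüppel-like factors and KLF3 partners listed for comparison (Klf1 to Klf17, Ctbp1, Ctbp2 and Fhl3), 16 had an entry. CCNCNCCC occurred in 13 of these, CACCC in 12 and CCACACCC in 2. The sequence is of another build than the reads, so the peaks below were not placed relative to this start.

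Ordered by start on GRCm38, the gene before Klf3 is Gm38457, and those after it are Gm31684, LOC115490263, Gm31889, Gm21011, the Toll-like receptor genes Tlr1 and Tlr6, and Fam114a1.

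KLF1 signal in the Klf3 window was concentrated in one place, where both listed peaks lay 620 bp apart. The higher peak spanned 65203454 to 65203457, and 12 ChIP reads and 2 input reads covered its start, each read taken to reach 100 positions past its 5′ end. Scaled to library size this was a ratio of 16.3 (95% interval 3.63 to 150). The lower peak spanned 65202834 to 65202850, with 9 ChIP reads, 2 input reads and a ratio of 12.2 (2.53 to 116). The order of the peaks depended on the count: by 5′ ends within 100 bp of the centre the higher peak had 14 ChIP and 4 input reads, a ratio of 9.50, and the lower had 10 and 2, a ratio of 13.6. These reads placed the peaks, so the ratios describe them and were not tested.

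Within the authors' list both were modest. The authors' pileup height ran from 9 to 57 over the list with a median of 11. The higher Klf3 peak, at 12, stood above 548 of 945 peaks (58.0%) and shared its height with 67, itself included. The lower, at 9, was at the minimum of the list a height held by 284 peaks. Peaks this close together were uncommon in the list: 18 of 945 (1.90%) had another listed peak within 1000 bp.

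**Figure D1:**
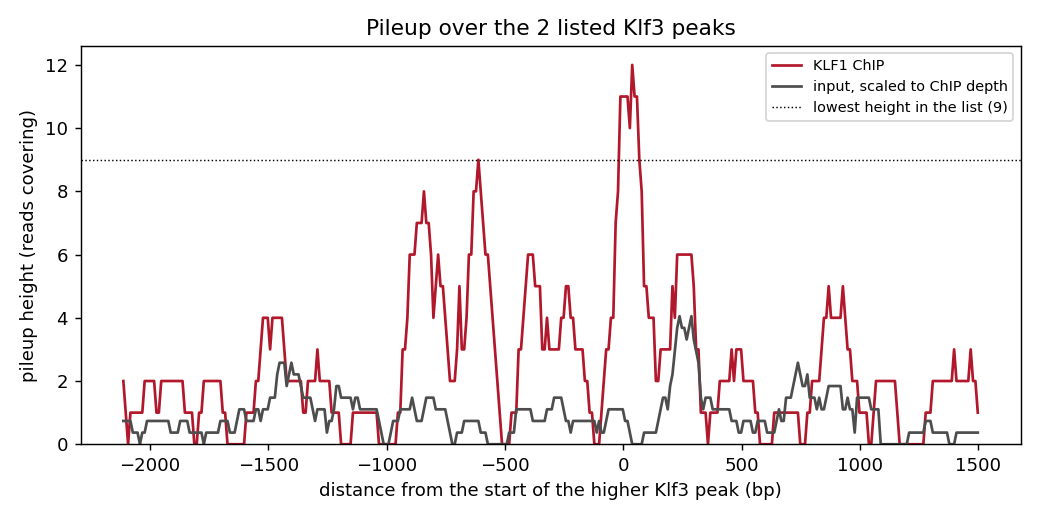
Pileup height (number of reads covering each position, reads reaching 100 positions past the 5′ end) by distance in bp from the start of the higher Klf3 peak, for the KLF1 ChIP and for input scaled to ChIP depth. The ChIP reached 12 at the higher and 9 at the lower peak, fell to 0 between them, and reached 8 at an unlisted position 861 bp before the higher peak.

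The ChIP pileup fell to 0 between the peaks, while the unscaled input pileup stayed between 0 and 4 there. A further rise of the ChIP pileup, which is not in the list, lay at 65202593, where 8 ChIP and 2 input reads gave a ratio of 10.9 (2.17 to 105). It was 1 read short of the lowest listed height. Across the window 9 runs reached a height of 7 or more, and the 2 listed peaks were the only ones of 9 or more. A run ends wherever the pileup dips below 7, so runs are not all separate sites. Those at 65212601, 65212621 and 65212679 lie closer together than the reach of a read. Such runs were not counted over the genome, so no excess in the window is read from their number. The other 2 runs of height 8 lay at 65170307, with 4 input reads, and at 65212621, with 5. At 65197639, 5.82 kb before the higher peak, 7 ChIP reads met 2 input reads. The run of height 7 at 65203708 had 9 input reads and a ratio of 2.11 (0.668 to 6.37), so the input was also high there.

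At both peaks forward reads lay mainly before the summit or reverse reads mainly after it. In the 100 bp before the higher peak all 10 ChIP reads were on the forward strand, and in the 100 bp after it 2 were forward and 2 reverse. Around the lower peak the 100 bp before held 2 forward and 1 reverse ChIP reads, and the 100 bp after held 0 forward and 6 reverse. The input had at most 2 reads on a strand in any of these intervals. A read within 100 bp that points to the summit helps set its height, so part of this lean is fixed by the choice of peaks.

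Reads beside the summits, which do not reach the centre of the peak, gave a measure less tied to the listing. It is not free of it, since the forward reads nearest the centre can still cover the start, where the height was taken. On both sides of the lower peak, beyond 100 bp and within 300 bp of its centre, there were 16 ChIP and 9 input reads, a ratio of 4.83 (2.01 to 12.4, two-sided exact binomial p adjusted over 945 peaks by Benjamini-Hochberg = 0.00121). Beside the higher peak there were 11 and 17, a ratio of 1.76 (0.744 to 3.98, adjusted exact binomial p = 0.282). The flanks of the lower peak take in the unlisted rise at 65202593, and those of the higher peak the run at 65203708 where the input was high, so neither ratio is of the peak's own shoulder alone. The intervals of both ratios overlap, and their difference was not tested. Of all listed peaks 28.3% passed this test with ChIP higher, and 1 of the 2 Klf3 peaks did. With both peaks together the flanks held 27 ChIP and 26 input reads, a ratio of 2.82 (1.58 to 5.03).

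A count that does not use the peak list tiled the genome in bins of 500 bp and asked of each whether ChIP exceeded input 5-fold (1 read added to each count), at a threshold of 0.05 on the adjusted p of a one-sided exact binomial test. Over the genome 0.00647% of 4851111 bins with reads were called, 314 in all. In the Klf3 window 2 of 139 were, and these adjacent bins held the listed peaks. The reads that placed the peaks lie in these bins, so the p-values below are not independent of the listing. The bin from 65203000 to 65203499 had 23 ChIP and 11 input reads, a ratio of 5.43 with an adjusted exact binomial p of 0.00718. The bin from 65202500 to 65202999 had 20 and 9, a ratio of 5.70 with an adjusted exact binomial p of 0.0207. Among the remaining bins of the window the next lowest p belonged to 65238500 to 65238999, with 13 ChIP and 7 input reads and an adjusted exact binomial p of 0.742. An unadjusted p under 0.05 occurred in 10 of the 139 bins of the window, in 6 of 200 in the 100 kb before it and in 6 of 187 in the 100 kb after it. Those 10 include both called bins. The share over the genome at this unadjusted threshold is not given here, so no excess in the window is read from these counts. The bins called depended on their size: none was called with bins of 200 bp (0.00243% over the genome), where the lowest adjusted exact binomial p in the window was 0.144. With bins of 1000 bp (0.00577% called) the lowest was 0.00374, but no bin reached 5-fold.

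**Figure D2:**
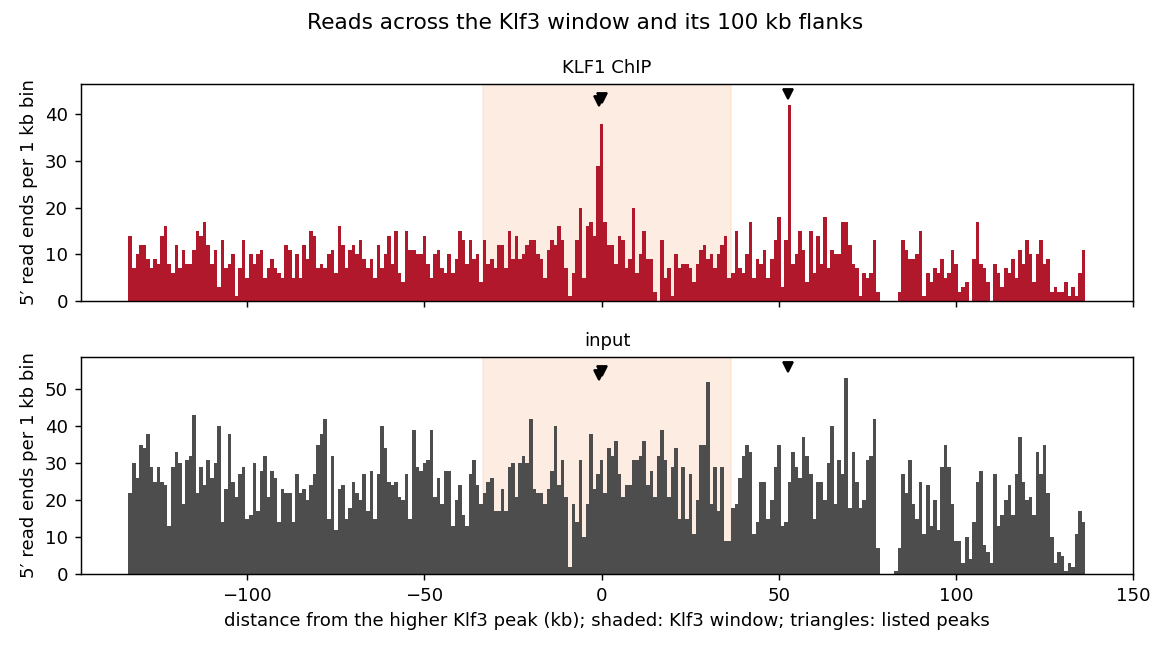
5′ read ends per 1 kb bin in the KLF1 ChIP (top) and input (bottom) by distance in kb from the higher Klf3 peak, unscaled, over the shaded 70 kb window and 100 kb on each side. The highest ChIP bin of the window, 38 reads, lies at the listed peaks marked by triangles, and input reads occur in all 70 bins of the window.

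Over the locus as a whole ChIP and input counts lay much closer. In the window the ChIP had 10.7 reads per kb and the input 25.5, a scaled ratio of 1.14 (1.04 to 1.24). The 100 kb before had 9.55 and 25.5 reads per kb, a ratio of 1.02 (0.944 to 1.10), and the 100 kb after had 7.89 and 19.9, a ratio of 1.08 (0.989 to 1.17). The window exceeded both flanks 1.09-fold (0.984 to 1.21, two-sided Fisher's exact p = 0.0946), which did not pass. From 500 bp before the lower to 500 bp after the higher peak, 59 ChIP and 44 input reads gave 3.64 (2.42 to 5.51), and the rest of the window was at 1.07 (0.982 to 1.17).

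In tiles of 5 kb, 1 of the 14 in the window passed a two-sided exact binomial test adjusted over 512081 tiles, where 0.131% passed with ChIP higher and 0.108% with ChIP lower. It ran from 65200000 to 65204999 and held both peaks, with 115 ChIP and 141 input reads, a ratio of 2.22 and an adjusted exact binomial p of 3.33e-06. This tile includes the reads that placed the peaks, so its p is not independent of the listing. The 5 kb before it, from 65195000, had 60 and 93 reads and a ratio of 1.76, with an adjusted exact binomial p of 0.162. The lowest tiles were those from 65215000, with 35 and 141 reads and a ratio of 0.688, and from 65220000, with 36 and 154 and a ratio of 0.648. Neither passed (adjusted exact binomial p = 0.529 and 0.389).

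Around the pair of peaks the excess of ChIP reads faded unevenly. At 0.5 to 2 kb from the pair 45 ChIP and 78 input reads gave a ratio of 1.57 (1.06 to 2.29), where the other 943 listed peaks together gave 1.11. At 2 to 5 kb the ratio was 1.12 (0.838 to 1.49, against 1.02 for the others) and at 5 to 10 kb it was 1.40 (1.10 to 1.78, against 0.999). At 10 to 20 kb it was 0.888 (0.749 to 1.05, against 0.976). The sides differed in value: before the pair the ratios from the nearest to the farthest distance were 1.45, 1.42, 1.58 and 1.13, and after it they were 1.73, 0.931, 1.28 and 0.670. The span with 0.670 takes in all of the longer ChIP-empty stretch described below and part of the shorter. The lowest tiles above overlap the same stretches, so these low values are not separate observations. These distances were chosen with the peaks in view, and the differences from other peaks were not tested.

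Outside the window the nearest listed peak was far higher. It started at 65256112, 52658 bp beyond the higher Klf3 peak and 16112 bp past the window's end. There 30 ChIP and 5 input reads gave a ratio of 16.3 (6.26 to 53.8), and 23 of the 945 listed peaks were of its height or more. In its flanks, over the same distances, ChIP and input were at 0.905 (0.257 to 2.62). It was the only listed peak within 100 kb on either side of the window.

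The targeted gene was then looked for in the reads, since DNA missing from all the pooled livers would leave no read over it. The input held at least 1 read in each of the 70 bins of 1 kb, with 2 in the lowest, a median of 25.5 and 52 in the highest. Only 2 stretches of 500 positions or more had no input read. The longer, of 1009 positions between the reads at 65194147 and 65195156, would hold 22.9 input reads at the density of the flanks. The ChIP, which was not used to find it, also had 0 reads, where 8.79 were expected from its flanks (one-sided exact Poisson p = 1.52e-04). The shorter, of 516 positions between 65238958 and 65239474 near the window's end, held 1 ChIP read against 4.49 expected (exact Poisson p = 0.0616).

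Such stretches were common elsewhere. The 100 kb before the window had 1, of 568 positions, and the 100 kb after it had 11, the longest of 5036 positions between 65281595 and 65286631. That longest one also held 0 ChIP reads, where 43.9 were expected (one-sided exact Poisson p = 8.55e-20). Of those near 1009 positions in length, one of 1013 held 0 against 8.82 (exact Poisson p = 1.47e-04). Another, of 1044, held 1 against 9.09 (exact Poisson p = 0.00113). In the remaining flank stretches ChIP counts ran from 0 to 2. The window's 2 were 2.86 per 100 kb, against 8.37 on chromosome 5 and 9.61 over all placed chromosomes. Stretches of 1009 positions or more numbered 3174 on chromosome 5, or 21.2 per Mb. Sequence that reads cannot be aligned to is empty in both libraries as well. The Poisson p-values assume evenly spread reads, so they do not bear on the targeted allele. Why the stretches of the window are empty was not tested, since no mm9 sequence was used.

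The ChIP library had empty stretches of its own where the input had reads. Between 65218839 and 65220251, 15.4 kb beyond the higher peak, lay 1412 positions with no ChIP read and 46 input reads. Scaled to ChIP depth those 46 reads are 16.9. Between 65222664 and 65223680 lay another 1016 positions with no ChIP read and 27 input reads, which scale to 9.94. Between these stretches ChIP reads were present, 25 against 79 input reads, a ratio of 0.859 (0.525 to 1.36). In the 2 kb before the first the ratio was 0.745 (0.381 to 1.37) and in the 2 kb after the second 0.731 (0.374 to 1.34).

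**Figure D3:**
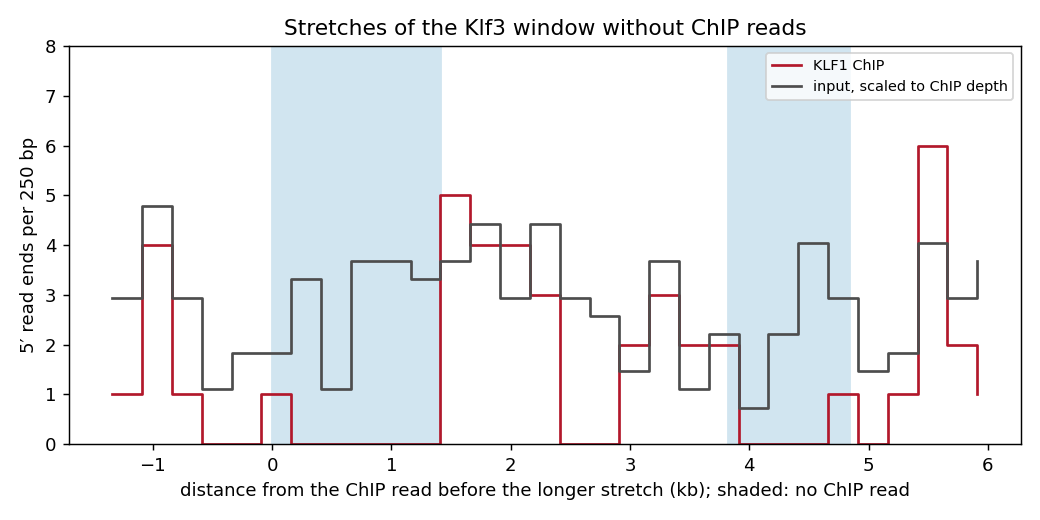
5′ read ends per 250 bp by distance in kb from the last ChIP read before the longer ChIP-empty stretch, for the KLF1 ChIP and for input scaled to ChIP depth. Both shaded stretches, 1412 and 1016 positions long, have no ChIP read inside, although the input holds 46 and 27 reads there.

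Few ChIP-empty stretches held as many input reads. Of 118671 stretches of 1000 positions or more without a ChIP read on the placed chromosomes, 80 (0.0674%) held 46 or more input reads, and 6 of these lay on chromosome 5. As many as 27 were held by 2282 (1.92%). The third such stretch in the window, 1457 positions from 65194017, overlapped the input-empty one and held 3 input reads. The 100 kb before the window had 1 such stretch, with 23 input reads, and the 100 kb after it had 6, with at most 14. The stretches were found by searching the window, so these ranks describe them and no test was made. The ranks hold only for stretches with no ChIP read at all, and they do not allow for stretch length or local input depth. In the longer stretch the input had 32.6 reads per kb, against 25.5 over the window. Both libraries carry the same genotype label, and which part of Klf3 lies at these positions was not determined here. Whether the input and the ChIP DNA carry the same Klf3 allele there was not tested.

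**Figure D4:**
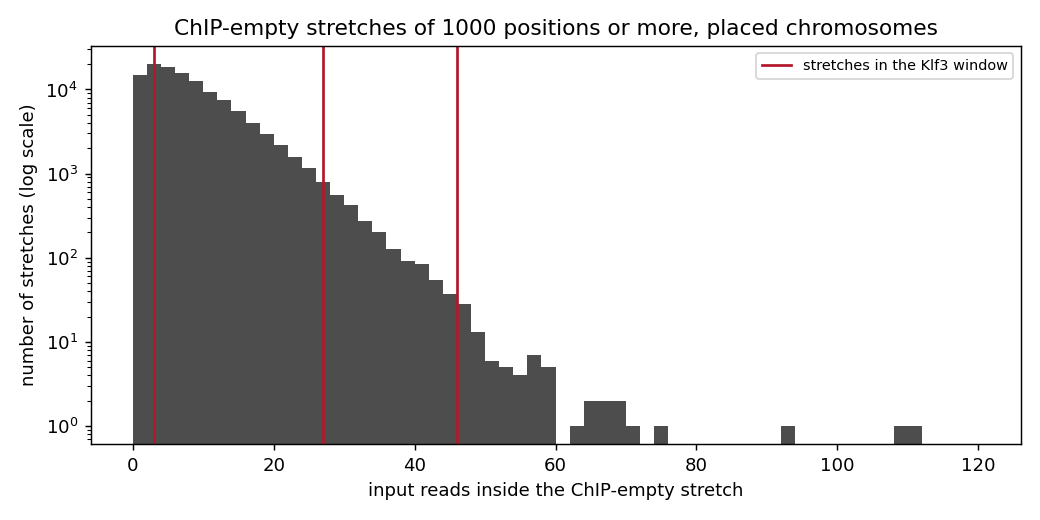
Number of ChIP-empty stretches of 1000 positions or more on the placed chromosomes (log scale) by the number of input reads inside them, in steps of 2 reads. Red lines mark the 3 stretches of the Klf3 window, with 3, 27 and 46 input reads, and 80 of the 118671 stretches reach 46 or more.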

How the data were processed

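DNA of KLF1 ChIP and input was sequenced on SOLiD systems, and per the labels the deposited files combine both systems. Build mm9 is named in the submitters' processing notes, and the aligner and peak caller are not given in the sources used here. The deposited read files list chromosome, position and strand. No reads of a library shared position and strand. The authors' peak list gives a signal per peak, read as pileup height: it equalled the ChIP reads covering the start, with reads reaching 100 positions past their 5′ end, for 945 of 945 peaks. Whether positions count from 0 or 1 is not given.

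Ratios were scaled to all aligned reads of each library, and their 95% intervals are exact Clopper-Pearson. The input had 2.72 times the reads of the ChIP. Over the window as a whole the ChIP count was the smaller, while at each summit the 2 input reads limit precision most. Tests across bins, tiles or peaks were adjusted by Benjamini-Hochberg over the genome or list. An empty stretch is the distance between consecutive 5′ ends. Named sites were all listed peaks, called bins and up to 5 input-empty stretches of the window, and the longest stretch in each flank. Tiles, distances from the pair, pileup runs and ChIP-empty stretches were added after seeing the data and fall outside that rule. The members and lists were chosen with earlier results of these data known. The bin test and stretch search were tried on simulated reads placed at random, without stretches that reads cannot be aligned to. Promoters came from RefSeq (GRCm38.p6). Family genes were not set against peaks, because no mm9 annotation was used. Tests ran in SciPy 1.17.1 under Python 3.11.15, tables in pandas 2.3.3 with NumPy 2.4.6, and plots in matplotlib 3.10.9.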

Additional observations from a re-analysis of the deposited data

How the results depend on the processing

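No paired analysis was possible because each group was deposited as 1 combined file, so no sequencing run could be left out or blocked. The 9 results were recomputed under 31 settings, 2 of them added later with the data in view. Under 8 settings a result moved by the limits set for it. The other 23 stayed on the same side of a threshold, within 1.5 times for a count, or within the counting interval or error for a value, which does not mean that values stayed close. The 2 called bins became 0 with bins of 200 bp, 0 with bins of 1000 bp and 0 at a ratio of 10. The 2 input-empty stretches became 9 at a minimum of 300 positions, 1 at 1000 positions and 4 with up to 1 read allowed. The 2 listed peaks became 1 at height 11 or more and 0 at height 20 or more. The overlap of gaps on each strand gives the same stretches by construction. The flank ratio of both peaks, 2.82, ran from 2.72 in flanks up to 500 bp to 8.15 in flanks up to 200 bp. The summit ratio of the higher peak, 16.3, was 9.50 by 5′ ends within 100 bp, and a window widened by 20 kb held 3 listed peaks. The counts of genes with a peak need an mm9 annotation and were not run. With 9 and 12 ChIP reads and only 2 input reads at each summit, intervals span more than an order of magnitude.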
